A study of Mus musculus with 12 samples.

Results

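Amino acid transporters of the Slc1, Slc3, Slc7, Slc36, Slc38 and Slc43 families were followed in cultured mouse myeloid progenitors that received Myc, were labelled Zfx knockout, both or neither. Members were the probe sets whose single gene symbol begins with one of these family names and a member number, which gave 45 of 35556 probe sets and 43 of 19938 genes. The match also took in Slc7a6os, a neighbour of Slc7a6 that does not encode a transporter, so 42 of the 43 genes are transporters by name. Slc38a1 and Slc38a9 had 2 probe sets each, and the brighter was used for the gene.

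RNA was hybridised to 12 gene arrays, 3 in each of 4 groups: Myc ko, Myc wt, GFP ko and GFP wt. The starting cells were bone marrow progenitors bearing c-Kit, from mice given 5 mg of tamoxifen by gavage on each of 3 days. Every mouse carried CreER, the tamoxifen-dependent form of Cre recombinase, together with a floxed Zfx (Zfx fl/y CreER, labelled ko) or an unfloxed Zfx (Zfx wt/y CreER, labelled wt), so the wt cells had CreER and tamoxifen too. Myc groups received a retrovirus carrying Myc and GFP, and GFP groups a control retrovirus with GFP. GFP+ cells were sorted at 48 hours and kept 4 days longer in 20% FBS with 3 cytokines at 10 ng/mL (SCF, IL-6 and IL-3). Replicates are known by a number from 1 to 3, and nothing in the labels says that they were separate animals, so a p-value here measures only the spread between these arrays. In such cultures fewer cells of a type and less RNA per cell cannot be told apart.

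The labels ko and wt are the submitters': the Zfx probe set averaged 1048 ± 63.2 in Myc ko and 992 ± 26.4 in Myc wt, and 1021 ± 64.9 in GFP ko and 946 ± 72.9 in GFP wt (intensity, SD, n = 3 each). It was thus not lower in the arrays labelled ko, and the files do not say whether its probes lie in the deleted part. The Myc probe set averaged 5046 ± 260 in Myc ko against 2701 ± 145 in GFP ko, and 5231 ± 343 in Myc wt against 3014 ± 197 in GFP wt. Kit, which defined the starting cells, read 691 to 1582 over the 12 arrays.

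A cell needs carriers in its plasma membrane to take up amino acids and others in the lysosome to return the products of protein breakdown. Light chains of the Slc7 family such as Slc7a5 reach the surface only when joined to a heavy chain of the Slc3 family, and the resulting pair swaps one amino acid for another. Slc1 and Slc38 carriers draw on the sodium gradient. Slc1 carriers load either glutamate or neutral amino acids, and Slc38 carriers mainly glutamine and small neutral amino acids. Slc43 carriers let branched-chain and aromatic amino acids pass down their gradient, and Slc36 carriers move small amino acids with protons. Leucine and arginine that enter the cell are read at the lysosome by the kinase complex mTORC1, and shortage is read by the kinase Gcn2, encoded by Eif2ak4, which acts through the transcription factor Atf4.

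Of the 43 genes, 25 had a mean above the median of all probe sets, and 18 did not. The 18 dim genes lay between 26.3 and 166 on all arrays and included the glial glutamate carriers Slc1a2 and Slc1a3, the kidney pair Slc3a1 and Slc7a9, and Slc7a10, Slc38a3, Slc38a4 and Slc38a11. In limma's fit over 19938 genes, with adjusted p under 0.05 as the threshold, 12 of the 43 genes, 27.9%, passed in at least 1 of 4 comparisons between groups, against 18.5% of all genes. Of those 12, 11 were among the 25 brighter genes, 44% of these, against 31.8% of all 10744 genes above the median and 2.85% of those not above it. Each group enters 2 of the 4 comparisons, so a Myc and a Zfx difference of the same gene share arrays. A further 5, 11.6%, passed only when the replicate number was a block in the fit, against 18% of all genes, and 26 passed in neither fit. Among the 26 were 17 dim genes and Slc3a2, Slc7a2, Slc7a4, Slc36a2, Slc38a1, Slc38a2, Slc38a7, Slc38a10 and Slc43a2. Over the 12 arrays the brighter genes spanned from 1.21-fold in Slc38a10 to 12.2-fold in Slc7a11.

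**Figure D1:**
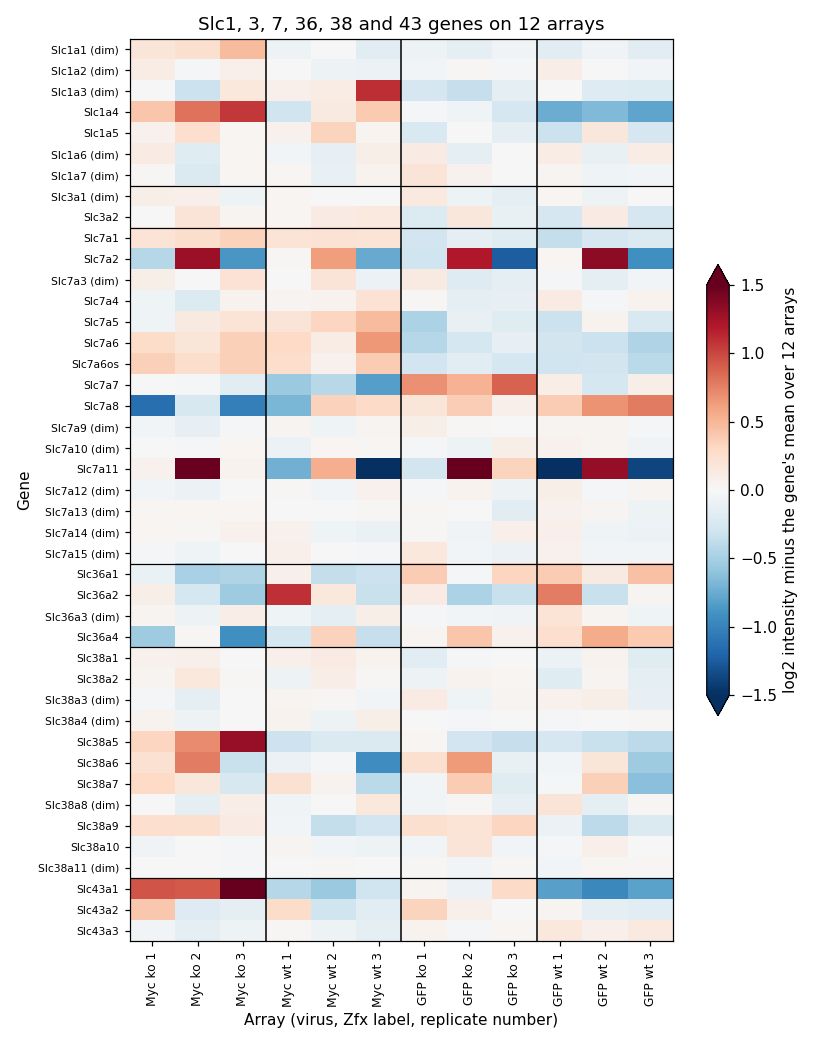
Log2 intensity of the 43 genes on the 12 arrays, each gene shown relative to its own mean, with families divided by horizontal lines, groups by vertical lines, and genes not above the median of all probe sets marked as dim. Slc43a1 is highest on the 3 Myc ko arrays and lowest on the 3 GFP wt arrays, while Slc7a11 and Slc7a2 are highest on the arrays numbered 2.

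Promoter stretches of 6 members that differed between groups are shown because they hold one of a pair of letter patterns linked to the regulators named above: the E-box CACGTG, which Myc and related factors bind, or TGATGNAA, the core of the element through which Atf4 acts. Each stretch runs 5′ to 3′ along the gene from 150 bases before the RefSeq gene start to 10 bases after it, in GRCm38.p6, with matches on either strand in capitals. The first 3 hold TGATGNAA or its reverse complement, and the last 3 hold CACGTG, which reads the same on both strands. No stretch holds both patterns.
Slc1a4 (chr11:20332704-20332863, minus strand): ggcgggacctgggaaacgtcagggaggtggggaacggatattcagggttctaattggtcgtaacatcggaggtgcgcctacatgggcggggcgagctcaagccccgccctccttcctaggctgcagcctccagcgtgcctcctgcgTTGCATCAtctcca
Slc7a11 (chr3:50443604-50443763, minus strand): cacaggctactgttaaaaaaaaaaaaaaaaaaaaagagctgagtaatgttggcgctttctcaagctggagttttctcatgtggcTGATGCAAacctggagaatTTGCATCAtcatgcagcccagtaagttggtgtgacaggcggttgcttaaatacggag
Slc7a7 (chr14:54417935-54418094, minus strand): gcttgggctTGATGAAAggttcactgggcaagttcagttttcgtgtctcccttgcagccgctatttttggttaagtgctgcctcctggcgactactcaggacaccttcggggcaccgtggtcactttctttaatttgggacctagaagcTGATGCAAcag
Slc43a1 (chr2:84840173-84840332, plus strand): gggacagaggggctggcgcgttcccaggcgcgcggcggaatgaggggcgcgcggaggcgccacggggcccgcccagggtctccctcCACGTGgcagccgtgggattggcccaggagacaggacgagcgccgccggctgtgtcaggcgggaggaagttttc
Slc38a5 (chrX:8271231-8271390, plus strand): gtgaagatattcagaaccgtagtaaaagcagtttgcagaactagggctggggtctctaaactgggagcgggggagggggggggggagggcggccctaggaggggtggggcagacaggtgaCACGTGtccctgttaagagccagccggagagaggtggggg
Slc36a1 (chr11:55204190-55204349, plus strand): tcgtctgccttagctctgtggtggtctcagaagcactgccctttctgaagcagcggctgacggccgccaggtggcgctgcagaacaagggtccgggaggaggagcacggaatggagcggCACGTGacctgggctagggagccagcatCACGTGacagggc
The RefSeq table held 43 windows of 300 bases (250 before and 50 after a start) for 32 of the 43 genes, and Slc7a5 and Slc1a5 were not among them. TGATGNAA was in 4 of these 43 windows, 9.3%, against 3.97% of all 32851 windows in the table, and its 3 genes were Slc1a4, Slc7a11 and Slc7a7, the last with 5 windows of which the first is shown. CACGTG was in 7 of the 43 windows, 16.3%, against 7.15% of all windows: besides the 3 shown, these were Slc1a6, Slc1a7, Slc7a14 and Slc38a7. A match is a run of letters and was not tied to binding here.

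In cells labelled ko Myc raised 7 genes (Slc1a1, Slc1a4, Slc7a1, Slc7a6, Slc7a6os, Slc38a5 and Slc43a1) and lowered 3 (Slc7a7, Slc7a8 and Slc36a1). That was 10 of 43 genes, 23.3%, against 13.2% of all genes tested, with 8.58% of all genes higher and 4.59% lower. In cells labelled wt it raised 5 genes (the light chains Slc7a5 and Slc7a6, the cationic carrier Slc7a1, the neutral carrier Slc1a4 and Slc7a6os) and lowered 1, the light chain Slc7a7. That was 6 of 43, 14%, against 9.28% of all genes, with 6.17% higher and 3.11% lower. Slc1a4, Slc7a1, Slc7a6, Slc7a6os and Slc7a7 passed in both comparisons.

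Blocking on the replicate number gave 13 of 43 genes in ko (9 higher, 4 lower), against 24.9% of all genes (14.5% higher, 10.4% lower). It gave 11 of 43 in wt (7 higher, 4 lower), 25.6%, against 20.5% of all genes (12.2% higher, 8.25% lower). The median log2 difference over the 43 genes was 0.02 in ko and 0.01 in wt, beside 0.01 and 0.00 over all genes. In wt the 6 calls became 3 without GFP wt 1, GFP wt 3 or Myc wt 3.

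**Figure D2:**
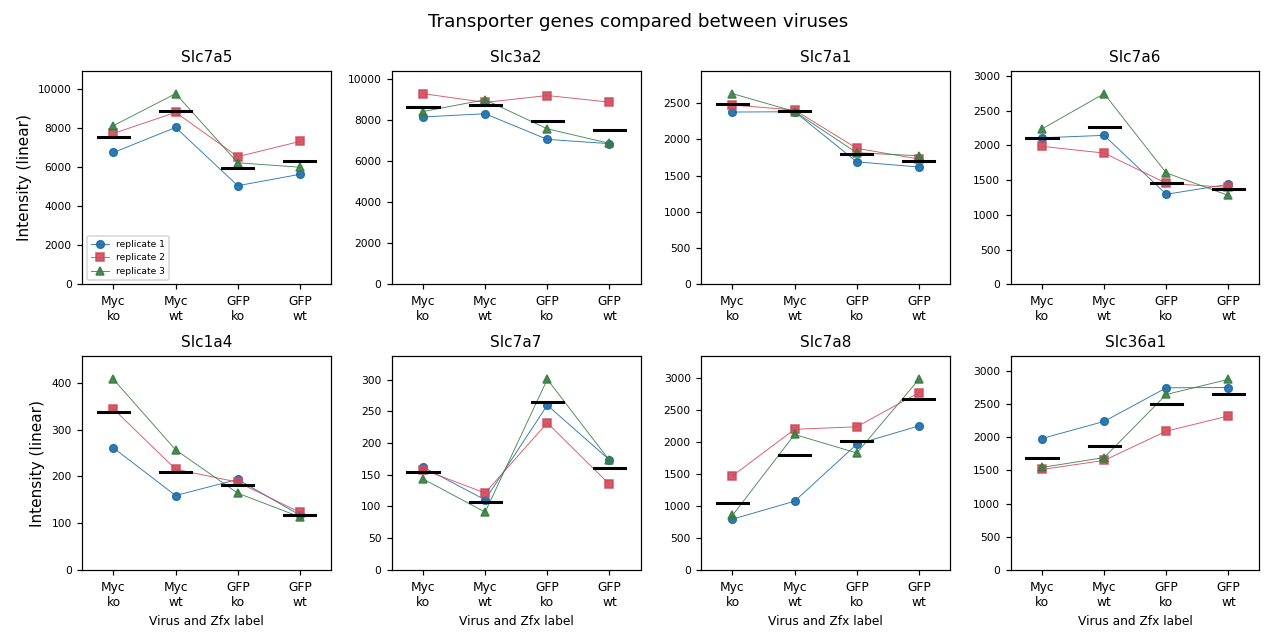
Linear intensity (vertical axis, from 0) of 8 transporter genes in Myc ko, Myc wt, GFP ko and GFP wt cells; points are arrays, thin lines join arrays of equal number, and black bars are means of 3. Slc7a1 separates the Myc arrays from the GFP arrays in both genotypes, and Slc3a2 does not.

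Slc7a5, the light chain that imports leucine and other large neutral amino acids (probe set 10582275, chromosome 8), had intensities of 6736, 7711 and 8109.7 in Myc ko, against 5038, 6523 and 6209 in GFP ko, and 8016, 8788 and 9745 in Myc wt, against 5621, 7303 and 5984 in GFP wt. The Myc and GFP arrays did not overlap in either genotype. In ko the gene was 1.27-fold higher (95% interval 1.05 to 1.55, adjusted p = 0.114), past the threshold only with the block (adjusted p = 0.00842). In wt it was 1.41-fold higher (95% interval 1.16 to 1.72, adjusted p = 0.0373). There the call was lost without Myc wt 1, GFP wt 1, Myc wt 2, Myc ko 2, Myc wt 3, GFP wt 3 or GFP ko 3 (adjusted p up to 0.152), and the adjusted p was 0.0758 with arrays centred on their medians.

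Slc3a2, the heavy chain that Slc7a5 needs (10465772, chromosome 19), had 8142, 9277 and 8405 in Myc ko, against 7051, 9185 and 7564 in GFP ko, and 8299.6, 8852 and 8979.8 in Myc wt, against 6843, 8865 and 6857 in GFP wt. The ranges overlapped in each genotype, and the arrays numbered 2 of the GFP groups were near those of the Myc groups. The log2 differences were 0.12 ± 0.12 (SE) in ko (adjusted p = 0.682) and 0.22 ± 0.12 in wt (adjusted p = 0.358). Without the 4 arrays numbered 2, Slc3a2 in wt was past the threshold (log2 difference 0.33, adjusted p = 0.038).

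Slc7a1, the main carrier of arginine and lysine in many dividing cells (10535852, chromosome 5), had 2378, 2475 and 2633 in Myc ko, against 1690.0, 1878 and 1816 in GFP ko, and 2383, 2407 and 2385 in Myc wt, against 1619, 1729 and 1775 in GFP wt. All 6 Myc arrays lay above all 6 GFP arrays. The gene was 1.39-fold higher (95% interval 1.27 to 1.52, adjusted p = 0.00124) in ko and 1.4-fold higher (95% interval 1.28 to 1.54, adjusted p = 0.00196) in wt, and both calls held without each array in turn.

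Slc7a6, a light chain that exchanges cationic for neutral amino acids (10574985, chromosome 8), had 2107, 1985 and 2235 in Myc ko, against 1295, 1454 and 1602 in GFP ko, and 2143, 1888 and 2743 in Myc wt, against 1438, 1393 and 1278 in GFP wt. No Myc array was as low as any GFP array, and Myc wt 3 was the highest of all. The gene was 1.46-fold higher (95% interval 1.2 to 1.77, adjusted p = 0.0183) in ko and 1.63-fold higher (95% interval 1.34 to 1.98, adjusted p = 0.00807) in wt. In ko the call was lost without GFP ko 1 or Myc ko 3 (adjusted p up to 0.0761). Slc7a6os, its next protein-coding neighbour in RefSeq, whose yeast relative escorts RNA polymerase II into the nucleus, had 829.8, 774 and 830.0 in Myc ko, against 528, 579 and 537 in GFP ko, and 778, 676 and 838 in Myc wt, against 524, 532 and 488 in GFP wt. It was 1.48-fold higher (95% interval 1.31 to 1.67, adjusted p = 0.00191) in ko and 1.48-fold higher (95% interval 1.31 to 1.67, adjusted p = 0.00316) in wt. The annotated gene bodies of the pair do not overlap.

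Slc1a4, which carries alanine, serine and cysteine and whose promoter stretch ends near the reverse complement of TGATGNAA (10384539, chromosome 11), had 261, 344 and 408 in Myc ko, against 194, 188 and 164 in GFP ko, and 159, 215 and 257 in Myc wt, against 117, 123 and 113 in GFP wt. The Myc and GFP arrays did not overlap in either genotype, and the gene was 1.83-fold higher (95% interval 1.38 to 2.42, adjusted p = 0.0111) in ko and 1.75-fold higher (95% interval 1.32 to 2.32, adjusted p = 0.0203) in wt. In wt the call was lost without GFP wt 1, Myc wt 2, Myc wt 3 or GFP wt 3 (adjusted p up to 0.083), and without the 4 arrays numbered 2 the adjusted p was 0.0907 in ko and 0.13 in wt.

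Slc1a5, the glutamine carrier of the same family (10550332, chromosome 7), had 1359, 1542 and 1321 in Myc ko, against 1102, 1302 and 1167 in GFP ko, and 1350.1, 1631 and 1331 in Myc wt, against 1034, 1453 and 1088 in GFP wt. Every same-numbered pair was higher with Myc, by log2 differences of 0.30, 0.24 and 0.18 in ko and 0.38, 0.17 and 0.29 in wt. It passed only with the block (adjusted p = 0.0188 in ko and 0.0116 in wt, against 0.332 and 0.277 without it). The glutamine carriers Slc38a1 and Slc38a2 of system A did not pass in either fit: Slc38a1 differed by 0.11 ± 0.07 in ko and 0.16 ± 0.07 in wt (log2, SE), and Slc38a2 by 0.07 ± 0.08 and 0.11 ± 0.08. Over all 4 groups the highest array stood 1.24-fold above the lowest for the brighter Slc38a1 probe set and 1.27-fold for Slc38a2. The dimmer Slc38a1 probe set (10431872) ranged more widely, from 624 to 1023. Its log2 differences with Myc were 0.11 in ko (adjusted p = 0.876 over all probe sets) and 0.27 in wt (adjusted p = 0.493).

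Myc lowered the light chain Slc7a7 in both genotypes, and Slc7a8 and Slc36a1 in ko. Slc7a7, which exports arginine in exchange for neutral amino acids and is known from macrophages (10419744, chromosome 14), had 162, 158 and 144 in Myc ko, against 259.7, 232 and 300.4 in GFP ko, and 110.5, 121 and 91.1 in Myc wt, against 173, 135 and 173 in GFP wt. The Myc arrays lay below the GFP arrays in each genotype. The gene was 1.7-fold lower (95% interval 1.38 to 2.09, adjusted p = 0.00534) in ko and 1.49-fold lower (95% interval 1.21 to 1.83, adjusted p = 0.0242) in wt, where the call was lost without Myc wt 1, GFP wt 1, Myc wt 3 or GFP wt 3 (adjusted p up to 0.102).

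Slc7a8, a further exchanger of neutral amino acids (10419854, chromosome 14), had 792, 1468 and 852 in Myc ko, against 1962, 2235 and 1826 in GFP ko, and 1074, 2195 and 2115 in Myc wt, against 2249, 2767 and 2976 in GFP wt. Neither pair of groups overlapped, though array 1 of Myc wt was far below arrays 2 and 3. In ko the gene was 2.01-fold lower (95% interval 1.29 to 3.13, adjusted p = 0.0449), and in wt its log2 difference was -0.63 ± 0.29 (adjusted p = 0.255, and 0.0524 with the block). In ko the call was lost without Myc ko 1, GFP wt 1, GFP ko 1, GFP wt 2, GFP ko 2, Myc wt 3, Myc ko 3, GFP wt 3 or GFP ko 3 (adjusted p up to 0.158), and also with arrays centred on their medians (adjusted p = 0.0694).

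Slc36a1, which moves small amino acids and protons out of the lysosome and holds 2 CACGTG matches in its promoter stretch (10376216, chromosome 11), had 1981, 1515 and 1546 in Myc ko, against 2746, 2092 and 2645 in GFP ko, and 2239, 1651 and 1694 in Myc wt, against 2750.4, 2322 and 2874 in GFP wt. The Myc arrays lay below the GFP arrays in each genotype. In ko the gene was 1.49-fold lower (95% interval 1.17 to 1.89, adjusted p = 0.0362), where the call was lost without GFP wt 1, GFP ko 1, Myc ko 2, Myc ko 3 or GFP ko 3 (adjusted p up to 0.13). In wt it was 1.43-fold lower (95% interval 1.13 to 1.82, adjusted p = 0.069), past the threshold only with the block (adjusted p = 0.00307). Slc36a4 of the same family was lower with Myc in every same-numbered pair, by log2 differences of -0.58, -0.39 and -0.99 in ko and -0.52, -0.21 and -0.73 in wt. It passed only with the block (adjusted p = 0.00383 in ko and 0.0197 in wt, against 0.111 and 0.297 without it). Slc43a3, which carries purine bases rather than amino acids, differed by -0.19 ± 0.06 (log2, SE) in wt, past the threshold only with the block (adjusted p = 0.017).

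Markers of mature myeloid cells moved in the same comparisons as the lowered carriers. Among all genes 4.59% were lower with Myc in ko and 3.11% in wt, and 10.4% and 8.25% with the block. Of 19 measured neutrophil markers, 12 fell and 0 rose in ko, and 8 fell and 0 rose in wt, where 15 fell with the block. Their summed intensity was 97389.8 to 97976 in Myc ko against 129390.0 to 156233 in GFP ko, and 95227 to 107688 in Myc wt against 138467 to 163271 in GFP wt. Of 12 monocyte and macrophage markers, 2 fell in ko and 3 in wt and none rose, and with the block 6 and 5 fell. Their summed intensity was 13517 to 21500.5 in Myc ko against 22490.2 to 28440.4 in GFP ko, and 9174 to 17064 in Myc wt against 17260.4 to 22768 in GFP wt. Of 15 mast cell and basophil markers 7 fell in each genotype, and 0 rose in ko and 1 in wt. Their sums were 6487 to 10340.4 in Myc ko against 15178 to 20707 in GFP ko, and 12028 to 27019 in Myc wt against 25850.3 to 32733 in GFP wt. The part of these markers in the fall of Slc7a7, Slc7a8 and Slc36a1 was not tested.

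Between the Zfx labels, 5 of the 43 genes rose in ko with the Myc virus (Slc43a1, Slc38a9, Slc7a7, Slc38a5 and Slc1a1) and 3 with the GFP virus (Slc43a1, Slc38a9 and Slc7a7), and none fell in either comparison. With Myc this was 11.6% of the 43, against 5.46% of all genes tested, of which 1.74% were higher and 3.72% lower. With GFP it was 6.98%, against 4.11% of all genes, of which 1.17% were higher and 2.94% lower. With the block, 8 genes were higher and 1 lower with Myc, 20.9%, against 14.1% of all genes (6.05% higher, 8.03% lower). With GFP 6 were higher and 0 lower, 14%, against 12.2% (5.12% higher, 7.12% lower). The median log2 difference over the 43 genes was 0.02 with Myc and 0.01 with GFP, and 0.00 over all genes in each.

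Megakaryocyte markers were compared between the same groups. Of 6 measured, 0 passed without the block. With it 5 were higher and 0 lower in ko under each virus, when 6.05% of all genes were higher with Myc and 5.12% with GFP. The median log2 differences of the markers were 1.35 with Myc and 1.43 with GFP. These markers summed to 5629 to 16912 in Myc ko against 1918 to 7401 in Myc wt, and to 21264 to 27704 in GFP ko against 7402 to 14269 in GFP wt. Their part in the transporter values was not tested.

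Single arrays decided several of these calls. With Myc the count went from 5 to 3 without Myc ko 2, Myc ko 3, Myc wt 2 or Myc wt 3, where a newly passing gene also counts. Slc1a1, Slc38a9 and Slc7a7 all lost their calls without Myc wt 3. Slc1a1 and Slc7a7 lost theirs without Myc wt 1, and Slc38a9 and Slc7a7 theirs without Myc ko 1. With GFP the 3 became 1 without GFP ko 1, GFP wt 2 or GFP wt 3, and 0 without GFP ko 3. Without the 4 arrays numbered 2, 1 gene was left in each comparison, Slc43a1 with Myc and Slc7a7 with GFP.

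**Figure D3:**
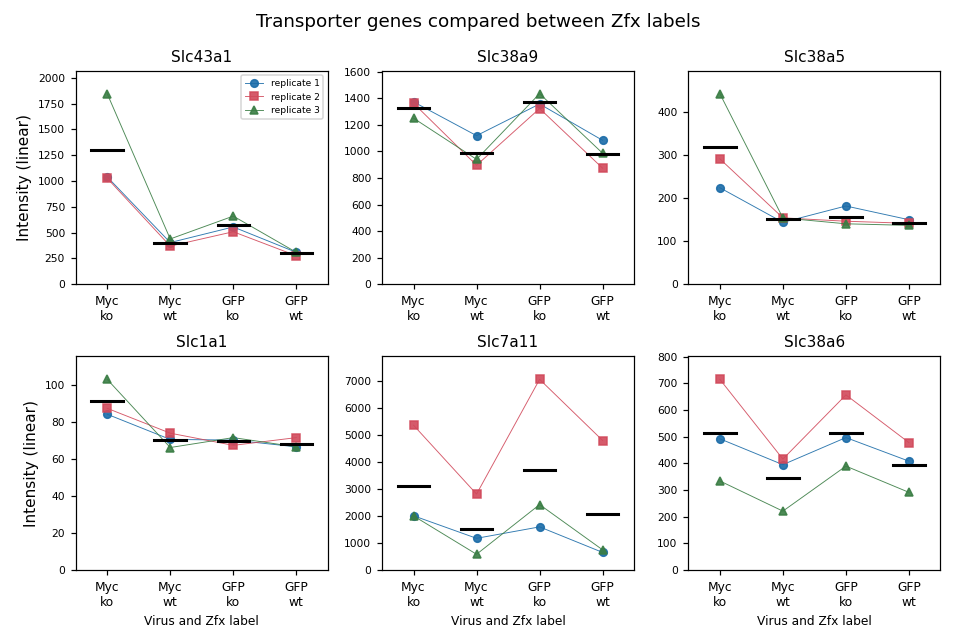
Linear intensity (vertical axis, from 0) of 6 transporter genes in Myc ko, Myc wt, GFP ko and GFP wt cells; points are arrays, thin lines join arrays of equal number, and black bars are means of 3. Slc38a5 and Slc1a1 stand higher in Myc ko than in the other groups, and the arrays numbered 2 lie above the rest for Slc7a11.

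Slc43a1, a facilitative carrier of leucine and other large neutral amino acids (10473367, chromosome 2), had the largest Zfx difference of the genes that passed in these comparisons. It had 1039.7, 1027 and 1846 in Myc ko, against 404, 369 and 439 in Myc wt, and 555, 508 and 659.8 in GFP ko, against 309, 276 and 309 in GFP wt. The 4 groups did not overlap: Myc ko was highest, followed by GFP ko, Myc wt and GFP wt. The gene was 3.11-fold higher (95% interval 2.3 to 4.22, adjusted p = 0.00112) in ko with Myc and 1.92-fold higher (95% interval 1.42 to 2.6, adjusted p = 0.0256) with GFP. With GFP the call was lost without GFP wt 1, GFP ko 1, GFP wt 2, GFP wt 3 or GFP ko 3 (adjusted p up to 0.0965), and the adjusted p was 0.0502 when all probe sets were tested. Myc raised it in ko, 2.2-fold (adjusted p = 0.00499), and its difference in wt was 1.35-fold (adjusted p = 0.246). The difference in wt passed the threshold with the block (adjusted p = 0.0446), and without the block when Myc ko 3 was left out (adjusted p = 0.028). The related carriers did not follow: Slc43a2 differed by 0.09 ± 0.18 with Myc and 0.23 ± 0.18 with GFP, and Slc43a3, which RefSeq places next but 1 to Slc43a1, by -0.02 ± 0.06 and -0.10 ± 0.06 (log2, SE), none past the threshold.

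Slc38a9, a lysosomal carrier that reports arginine to mTORC1 (probe set 10407192, chromosome 13), had 1372, 1362 and 1249.6 in Myc ko, against 1118, 895 and 939.8 in Myc wt, and 1357, 1322 and 1434 in GFP ko, against 1083, 873 and 986 in GFP wt. All 6 arrays labelled ko lay above all 6 labelled wt. The gene was 1.35-fold higher (95% interval 1.17 to 1.57, adjusted p = 0.027) with Myc and 1.4-fold higher (95% interval 1.21 to 1.63, adjusted p = 0.0197) with GFP. With Myc the call was lost without Myc ko 1, Myc wt 2, Myc ko 2, Myc wt 3 or Myc ko 3 (adjusted p up to 0.104), and with GFP the call was lost without GFP ko 1, GFP wt 2, GFP wt 3 or GFP ko 3 (adjusted p up to 0.0738). Between viruses it differed by -0.05 ± 0.10 in ko and 0.00 ± 0.10 in wt (log2, SE).

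The dimmer Slc38a9 probe set (10407209) had 193, 157 and 157 in Myc ko, against 162, 135 and 147 in Myc wt, and 187, 153 and 181 in GFP ko, against 176, 115 and 159.8 in GFP wt. Its groups overlapped under each virus. Its log2 differences were 0.19 with Myc (adjusted p = 0.876 over all probe sets) and 0.23 with GFP (adjusted p = 0.793). The 2 probe sets pointed the same way. Over all probe sets the brighter had adjusted p of 0.0526 with Myc and 0.0376 with GFP. On that like test it passed with GFP only, and the dimmer passed with neither virus.

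Slc7a7 was higher in ko in both comparisons, the opposite direction to its fall with Myc in comparisons that share arrays with these. From the values above, it was 1.44-fold higher (95% interval 1.17 to 1.78, adjusted p = 0.0488) with Myc and 1.65-fold higher (95% interval 1.34 to 2.03, adjusted p = 0.015) with GFP, and neither pair of groups overlapped. With Myc the call was lost without Myc wt 1, Myc ko 1, GFP wt 1, GFP ko 1, Myc wt 2, Myc ko 2, Myc wt 3, Myc ko 3 or GFP wt 3 (adjusted p up to 0.174), and with GFP the call was lost without GFP ko 3 (adjusted p = 0.056). Of the 12 monocyte and macrophage markers 0 passed between the Zfx labels without the block. With it 4 were higher and 0 lower with Myc, against 6.05% and 8.03% of all genes. With GFP 3 were higher and 1 lower, against 5.12% and 7.12% of all genes. The part of these markers in the values of Slc7a7 was not tested.

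Slc1a4 was higher in ko in all 3 pairs under each virus, with log2 differences of 0.71, 0.68 and 0.67 with Myc and 0.72, 0.61 and 0.53 with GFP. No array labelled ko was as low as an array labelled wt under the same virus. It passed only with the block (adjusted p = 0.0185 and 0.0319, against 0.0579 and 0.101 without it).

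Slc38a5, a carrier of glutamine, serine and glycine (10598507, chromosome X), and Slc1a1, a carrier of glutamate and cysteine (10462313, chromosome 19), were higher on each of the 3 Myc ko arrays than on any of the other 9. Slc38a5 had 224, 291 and 442 in Myc ko, against 143, 154 and 154 in Myc wt, and 181, 146 and 140.1 in GFP ko, against 149, 141 and 136 in GFP wt. It was 2.04-fold higher (95% interval 1.5 to 2.76, adjusted p = 0.014) in ko with Myc, and Myc raised it 1.98-fold in ko (adjusted p = 0.00924) beside 1.06-fold in wt (adjusted p = 0.935). Slc1a1, one of the dim genes, had 84, 87.2 and 103 in Myc ko, against 70.4, 73.8 and 66 in Myc wt, and 70.1, 67.2 and 71.4 in GFP ko, against 66.4, 71.4 and 66.4 in GFP wt. It was 1.3-fold higher (95% interval 1.15 to 1.47, adjusted p = 0.0196) in ko with Myc, where the call was lost without Myc wt 1 or Myc wt 3 (adjusted p up to 0.0847), and 1.31-fold higher with Myc in ko (adjusted p = 0.00947). Without the 4 arrays numbered 2 neither gene passed, with adjusted p of 0.127 and 0.0777 for the Zfx difference and 0.0817 and 0.0529 for the Myc difference.

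The summed level of red cell markers was highest on the same 3 arrays. Of 10 measured erythroid markers, 5 rose in ko with Myc and 0 with GFP, against 1.74% and 1.17% of all genes. Between viruses 6 rose with Myc in ko and 1 in wt, against 8.58% and 6.17%, and no marker fell. With the block 8 rose in ko with Myc and 1 with GFP (6.05% and 5.12% of all genes). Between viruses 8 markers then rose with Myc in ko and 3 in wt (14.5% and 12.2% of all genes). Their summed intensity was 11315, 13202 and 18374 in Myc ko, against 6368, 8406 and 7818 in Myc wt, and 8317, 8101 and 6934 in GFP ko, against 5640.5, 7182 and 5452 in GFP wt. Myc ko 3 was the highest array for this sum and for Slc43a1, Slc38a5 and Slc1a1. It was also the highest for Slc1a4 and Slc7a1. The 3 Myc ko values of Slc1a4 lay above those of all other arrays. Slc4a1, the anion exchanger of red cells, read 221, 1137 and 1572 in Myc ko, against 155, 348 and 206 in Myc wt, where array 2 lay above Myc ko 1. The part of these cells in the values of Slc43a1, Slc38a5, Slc1a1, Slc1a4 and Slc7a1 was not tested.

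Slc7a11, the cystine and glutamate exchanger that feeds glutathione synthesis (10498024, chromosome 3), varied most between replicate numbers. It had 2009, 5366 and 2004 in Myc ko, against 1172, 2812 and 581 in Myc wt, and 1596, 7066 and 2423 in GFP ko, against 649, 4798 and 744 in GFP wt. The second value was the highest in every group and the groups overlapped, yet every pair was higher in ko, by log2 differences of 0.78, 0.93 and 1.79 with Myc and 1.30, 0.56 and 1.70 with GFP. The gene was 2.24-fold higher with Myc (95% interval 0.596 to 8.44) and 2.28-fold with GFP (0.605 to 8.57), with adjusted p of 0.671 and 0.674, and 0.036 and 0.037 with the block. The arginine carrier Slc7a2 was also highest on the arrays numbered 2, at 533 in Myc ko, 337 in Myc wt, 501 in GFP ko and 554 in GFP wt, against 92.3 to 223 on the other 8 arrays, and it passed in no comparison. The summed intensity of dendritic cell markers, 9 of 9 measured, stood apart on the same 4 arrays, which does not show each marker. In the order 1 to 3 the sums were 1696, 17165 and 1169 in Myc ko and 1072, 5643 and 1040.3 in Myc wt. They were 2036, 10381 and 1401 in GFP ko and 1671, 6350.3 and 1194 in GFP wt. The monocyte marker Cd14 was also highest on these arrays, at 1552 in Myc ko, 1076 in Myc wt, 2786 in GFP ko and 1924 in GFP wt. The summed monocyte and macrophage markers were highest on the array numbered 2 in GFP ko only. The part of these markers in the values of Slc7a11 and Slc7a2 was not tested.

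Slc38a6, a less studied member (10396383, chromosome 12), had 492, 715 and 334 in Myc ko, against 395, 416 and 221 in Myc wt, and 497, 657 and 389.6 in GFP ko, against 408, 478 and 291 in GFP wt. It was higher in ko in every pair, by log2 differences of 0.32, 0.78 and 0.60 with Myc and 0.28, 0.46 and 0.42 with GFP, and passed only with the block (adjusted p = 0.00457 and 0.03). Slc7a8 was the 1 member lower in ko with the block, by -0.44, -0.58 and -1.31 (log2) in the 3 pairs with Myc (adjusted p = 0.0293, against 0.19 without the block). Mast cell and basophil markers also moved between the labels: 5 of 15 fell with Myc and 3 with GFP, against 3.72% and 2.94% of all genes, and none rose. With the block 6 fell under each virus, against 8.03% of all genes with Myc and 7.12% with GFP. The part of these markers in the values of Slc7a8 was not tested.

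**Figure D4:**
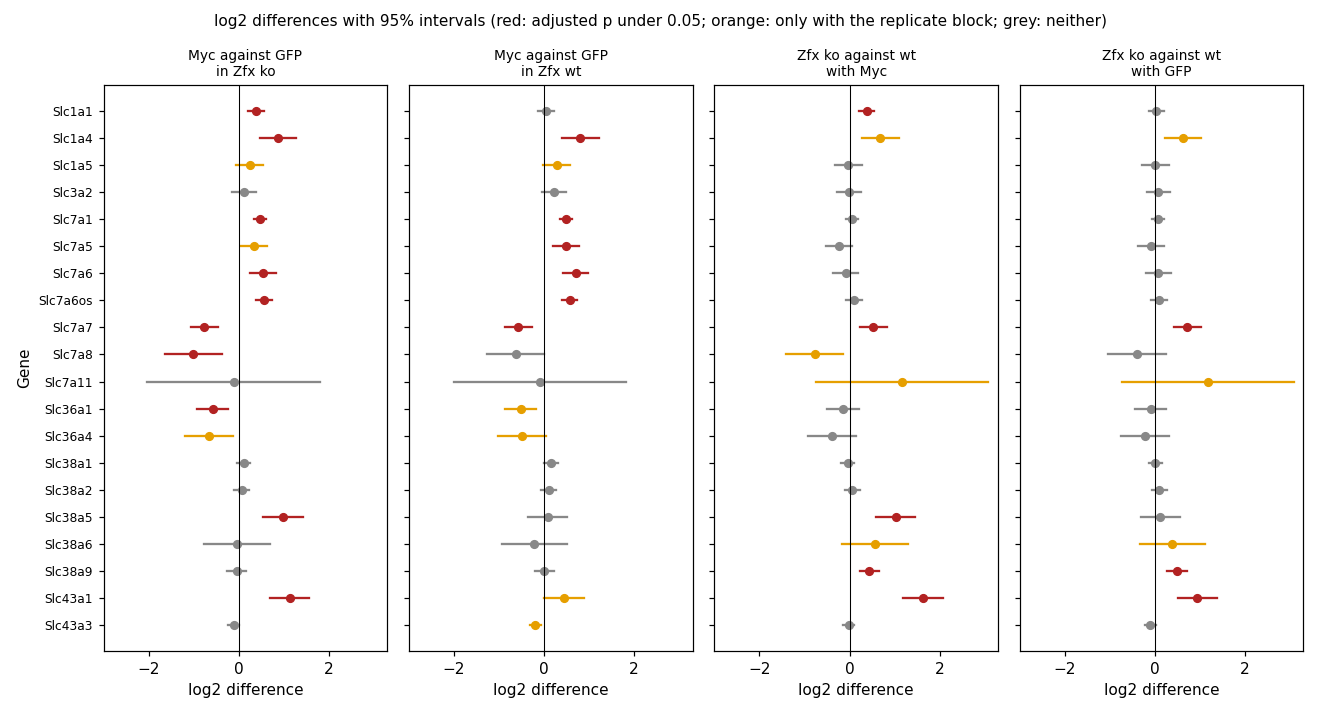
Log2 differences of 20 genes (points) with 95% intervals (lines) from the fit without the replicate block, in 4 comparisons; red marks adjusted p under 0.05, orange marks genes past the threshold only with the block, and grey marks the rest. Slc1a4, Slc7a1, Slc7a6 and Slc7a6os lie right of 0 in both Myc comparisons, and Slc7a7 lies left of 0 there and right of 0 in both Zfx comparisons.

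Whether the Myc response differed between genotypes was asked by the interaction. None of the 43 genes passed in limma, with or without the block, beside 0% and 0.00502% of all genes. At an unadjusted p under 0.05 there were 3 of 43, 6.98%, against 1.72% of all genes. They were Slc38a5 (log2 0.91 ± 0.28), Slc43a1 (0.70 ± 0.28) and Slc1a1 (0.35 ± 0.11), each with a larger Myc difference in ko. For these 3 the adjusted p was 1. A difference between genotypes in the Myc response was thus not shown for any member. For Slc7a1 the interaction was -0.01 ± 0.08, a fold ratio between 0.872 and 1.13 (95% interval).

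Among the 26 members that passed in neither fit, log2 differences ran from -0.15 (Slc1a7) to 0.19 (Slc1a3) for Myc in ko and from -0.19 (Slc7a2) to 0.56 (Slc1a3) for Myc in wt. Between the Zfx labels they ran from -0.55 (Slc36a2) to 0.11 (Slc38a7) with Myc and from -0.38 (Slc36a2) to 0.23 (Slc43a2) with GFP. Slc38a10, a little studied member, was the steadiest of the brighter members, at 1054 ± 17.2 in Myc ko, 1055 ± 44.4 in Myc wt, 1107 ± 108 in GFP ko and 1089 ± 35.8 in GFP wt (SD, n = 3 each). The branched-chain carrier Slc43a2 had 1079.5 ± 260, 1010.2 ± 219, 1153 ± 145 and 981 ± 78.6 in the same 4 groups, and the lysosomal glutamine carrier Slc38a7 642 ± 120, 596 ± 128, 633 ± 134 and 586 ± 192. Slc7a4 read 115 to 154 and Slc36a2 119 to 370.2 over the 12 arrays, with group ranges that overlapped for Slc36a2 in all 4 comparisons. The 17 dim genes without a call were Slc1a2, Slc1a3, Slc1a6, Slc1a7, Slc3a1, Slc7a3, Slc7a9, Slc7a10, Slc7a12, Slc7a13, Slc7a14, Slc7a15, Slc36a3, Slc38a3, Slc38a4, Slc38a8 and Slc38a11, many of them known from brain, kidney, gut or liver.

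Among other amino acid carriers outside the 6 families, 1 of 22 passed, and it did so in all 4 comparisons. That is 4.55%, against 13.2% of all genes for Myc in ko and 9.28% in wt, and 5.46% for Zfx with Myc and 4.11% with GFP. This was Slc6a15, a sodium-coupled carrier of branched-chain amino acids and proline, with 584, 1007 and 923 in Myc ko, 180.0, 328 and 274 in Myc wt, 138, 337 and 208 in GFP ko and 58.8, 111 and 66.3 in GFP wt. The Myc arrays were above the same-numbered GFP arrays, and the ko arrays above the same-numbered wt arrays. It was 3.22-fold higher in ko with Myc (adjusted p = 0.0238) and 2.81-fold with GFP (adjusted p = 0.0497, just under the threshold). Its GFP wt values all lay below 131, the median of all probe sets. Leaving out arrays was examined for the 43 genes only, so not for Slc6a15. With the block 3 of the 22 rose and 1 fell with Myc in ko, and 2 rose and 3 fell in wt, when 24.9% and 20.5% of all genes passed.

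Of the lists of enzymes that use the carried amino acids, the glutamine and the serine list had the most genes higher with Myc. Of 17 glutamine and glutamate enzymes, 7 rose and 1 fell in ko and 7 rose and 0 fell in wt, 47.1% and 41.2%, against 13.2% and 9.28% of all genes, with a median log2 difference of 0.34 and 0.40. Pfas, Ppat and Cad, which use glutamine to build purines and pyrimidines, rose 1.45-fold, 1.62-fold and 1.62-fold in ko and 1.5-fold, 1.49-fold and 1.51-fold in wt. Of 13 serine, glycine and one-carbon enzymes, 7 rose in ko and 6 in wt and none fell, 53.8% and 46.2% (median log2 0.44 and 0.45), with the folate enzyme Mthfd1 at 1.62-fold and 1.56-fold. Of 12 branched-chain amino acid enzymes 3 rose in ko and 4 in wt and none fell, 25% and 33.3% (median 0.17 and 0.18). Bckdhb and Dbt, subunits of the complex that breaks branched-chain keto acids, rose 1.43-fold and 1.33-fold in ko and 1.34-fold and 1.2-fold in wt. Bcat1, which takes the amino group from leucine, rose 1.85-fold in wt.

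Of 15 cystine and glutathione genes 2 rose in each genotype and none fell, 13.3% in each against 13.2% of all genes in ko and 9.28% in wt: the glutathione enzymes Gss at 1.34-fold in ko and 1.36-fold in wt and Gclc at 1.3-fold and 1.32-fold. Of 10 arginine and polyamine genes 1 rose in each genotype, Srm, which makes spermidine, 10% of the list. With the block the counts in wt were 10 higher and 1 lower for the glutamine list, 10 higher and 0 lower for the serine list, 4 higher and 0 lower for glutathione, and 2 higher and 2 lower for arginine. In that fit 20.5% of all genes passed in wt (12.2% higher, 8.25% lower). Between the Zfx labels 0 genes of the glutamine, glutathione and arginine lists passed without the block. With it the glutathione list had 3 higher and 0 lower with Myc and 4 higher and 1 lower with GFP, the arginine list 2 higher under each virus, and the glutamine list 1 higher with Myc and 2 lower with GFP. In the serine list 1 fell under each virus, Mthfd2l. In the branched-chain list 1 rose and 1 fell under each, and with the block 2 rose and 3 fell with Myc and 2 rose and 2 fell with GFP. Over all genes 5.46% passed between the Zfx labels with Myc and 4.11% with GFP, and 14.1% and 12.2% with the block.

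In the amino acid stress list, 21 genes measured, 7 rose and 1 fell with Myc in ko and 7 rose and 0 fell in wt. That is 38.1% and 33.3% (median log2 0.24 and 0.23), against 13.2% and 9.28% of all genes. With the block 10 rose and 3 fell in ko and 11 rose and 1 fell in wt, when 24.9% and 20.5% of all genes passed. Stc2 of this list rose 1.92-fold in ko and 2.4-fold in wt. The asparagine synthetase gene Asns rose 1.52-fold in ko, and Psat1, of serine synthesis, 1.31-fold in ko and 1.36-fold in wt. The lists overlap: Asns was also counted in the glutamine list, and Psat1 and Shmt2 also in the serine list. The shares of these lists are thus not separate results. Between the Zfx labels 1 gene rose and 1 fell under each virus, 9.52%, against 5.46% of all genes with Myc and 4.11% with GFP. The gene that fell was in each case Eif2ak4, the Gcn2 kinase gene, 1.61-fold lower in ko with Myc (adjusted p = 0.0123) and 1.57-fold lower with GFP (adjusted p = 0.0188). Trib3, a target of Atf4, rose 1.29-fold with Myc and Vldlr 2.17-fold with GFP. With the block 4 rose and 2 fell with Myc, and 5 rose and 1 fell with GFP, when 14.1% and 12.2% of all genes passed.

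Of 41 genes of amino acid sensing and mTORC1 at the lysosome, 6 rose and 2 fell with Myc in ko, and 4 rose and 4 fell in wt. That is 19.5% in each genotype, against 13.2% of all genes in ko and 9.28% in wt. With the block 12 rose and 8 fell in each, and 24.9% of all genes passed in ko and 20.5% in wt. Seh1l, of the GATOR2 complex, rose 1.51-fold in ko and 1.33-fold in wt, and Mios of the same complex 1.66-fold in ko. Castor2, a gene of the Castor family of arginine sensors, was 1.62-fold lower with Myc in wt (adjusted p = 0.00267). Between the Zfx labels 1 gene passed under each virus, 2.44%, against 5.46% of all genes with Myc and 4.11% with GFP. Depdc5, of GATOR1, was 1.24-fold higher in ko with Myc (adjusted p = 0.012) and Castor2 1.57-fold lower in ko with GFP (adjusted p = 0.00323). With the block 4 rose and 1 fell with Myc and 5 rose and 3 fell with GFP, when 14.1% and 12.2% of all genes passed.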

How the data were processed

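The authors deposited an intensity for every probe set on every array, summarised by RMA per the submitters' processing notes; the program behind it is not given in the sources used here. In the plan they were taken as log2, but they are linear, so log2 was taken with no pseudocount. RMA fits all arrays to 1 distribution, so a shift of all transcripts would not show. Of 35556 probe sets, 21789 had 1 symbol, 1621 several and 12146 were not listed; the brightest per symbol gave 19938 genes, without a filter. Array medians lay between 127 and 137. All 43 member genes matched RefSeq (GRCm38.p6) by gene ID with the same symbol. Members and lists were chosen with earlier results of these data known.

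Groups came from sample titles. limma 3.58.1 in R 4.3.3 (lmFit, eBayes) fitted 4 group means over 12 arrays (8 residual degrees of freedom), with Benjamini-Hochberg adjustment over all genes; intervals are 95% and unadjusted. The fit was tested on simulated data with independent noise on each array. That test lacks the pairing of arrays described next, so it cannot show how the fit behaves under it. Arrays of equal number were read as paired: deviations from group means correlated at 0.40 to 0.85 in 18 pairs, which rests on the values, not the labels, so the block is given where it changes a call. Within groups log2 values correlated at 0.988 to 0.996, and 0 arrays were identical. Named were all members past the threshold in either fit, 9 well-known members, and up to 4 passing genes per list and comparison. Alternatives were the block, a second quantile normalization, median centring, a trended robust prior, array weights, only the groups compared, brighter genes, all probe sets and leaving out arrays; leaving out all arrays numbered 2 was added after seeing the data. Eosinophil and B lymphoid markers had 0 genes past the threshold in every comparison in either fit, T lymphoid markers 0 without the block and up to 1 with it, and stem and progenitor markers up to 3 of 12 without the block and up to 6 with it. Over all genes 4.11% to 13.2% passed in the 4 comparisons between groups, and 12.2% to 24.9% with the block.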

Additional observations from a re-analysis of the deposited data

How the results depend on the processing

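For Myc in ko, Myc in wt, Zfx with Myc and Zfx with GFP, 10, 6, 5 and 3 members passed. With the replicate block these were 13, 11, 9 and 6, and without the 4 arrays numbered 2 they were 7, 7, 1 and 1. Leaving out 1 array at a time gave 7 to 10, 3 to 7, 3 to 5 and 0 to 3. With only the groups compared, where fewer arrays enter the fit, 6 passed for Myc in ko and 1 for Zfx with Myc, and with all probe sets 3 for Zfx with Myc. The interaction stayed at 0 members under every setting that could be run, which leaves out the one with only the groups compared. Of 24 differences of named genes past the threshold, 24 kept their call with the block, a second quantile normalization or array weights, 23 with a trended robust prior, 22 with median-centred arrays, 22 of 22 among brighter genes, 18 with all probe sets, 13 with only the groups compared and 12 without the 4 arrays numbered 2, and 12 passed whichever single array was left out. The block added 15 calls and leaving out the arrays numbered 2 added 4. None turned its direction. The causes of the moved counts were not tested. With 3 arrays per group and 18 dim genes, precision is limited, and the numbers pair the arrays by their values alone.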
